A study of Homo sapiens with 10 samples.

Results

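The genes of the 2 families of cyclin-dependent kinase (CDK) inhibitors were examined in serum-starved human cells treated with merbarone. Members were taken by name: the 3 CIP/KIP genes (CDKN1A, CDKN1B and CDKN1C) and the 4 INK4 genes (CDKN2A, CDKN2B, CDKN2C and CDKN2D). All 7 were found, each as 1 row, among the 20327 genes of the tables. Polyadenylated RNA had been sequenced from wild-type hTERT RPE-1 cells, a telomerase-immortalised line of retinal pigment epithelium, after 48 h in medium with 0.1% fetal bovine serum; all groups shared this starvation. One experiment compared merbarone (200 µM, 30 min; 3 libraries) with DMSO vehicle (30 min; 3 libraries). The other compared merbarone (200 µM, 2 h; 2 libraries) with untreated cells (2 libraries). Merbarone is a catalytic inhibitor of DNA topoisomerase II, the enzyme that relieves DNA supercoils by passing one double strand through another. Because the 2 h control received no vehicle per its label, solvent and merbarone cannot be told apart there. Neither can treatment time, kind of control and experiment when the 2 experiments are set against each other.

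CDK inhibitors hold the cell cycle before S phase. CIP/KIP proteins bind whole cyclin and kinase complexes, chiefly those of CDK2, whereas INK4 proteins bind CDK4 and CDK6 and keep them from D-type cyclins. Without these kinases the retinoblastoma family stays active and E2F target genes stay low, which is one way in which cells without growth factors remain quiescent.

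Recovered reads per library totalled 26633780 to 38225538 in the 30 min experiment and 11956652 to 13691014 in the 2 h experiment. Of 7 retinal pigment epithelium markers, 3 (RPE65, RLBP1 and TYR) lay under 0.1 RPKM (reads scaled by gene length in kilobases and by library total) in all 10 libraries and 3 (BEST1, OTX2 and PMEL) at or above 1 RPKM; the summed list ran from 8.79 to 11.4 RPKM in the 30 min experiment and from 25.0 to 29.0 RPKM in the 2 h experiment. Most of this difference in sums lay in BEST1 alone, which ran from 2.097 to 20.03 RPKM over the 10 libraries. OTX2 ran only from 2.35 to 4.61 RPKM and PMEL from 3.68 to 5.07 RPKM. The sums therefore do not show that the list as a whole differed between the experiments. Of the 3 tested, OTX2 was called lower at 2 h, from 4.48 to 3.38 RPKM (limma, adjusted p = 0.0349). At 2 h 13.1% of all genes tested were called. None of the 3 was called at 30 min. Of 6 epithelial and mesenchymal line markers, 5 were at or above 1 RPKM in all libraries (VIM at 560 to 1105 RPKM and KRT18 at 14.1 to 69.4 RPKM) and CDH1 was at or under 0.0023 RPKM; none was called in either comparison. Of 6 markers of other cell types, 5 were under 0.1 RPKM in every library, with CD3E and HBB at 0. All 7 proliferation markers were at or above 1 RPKM in all libraries, with MKI67 between 12.2 and 22.5 RPKM and summed levels of 47.9 to 65.7 RPKM at 30 min and 54.4 to 65.5 RPKM in the 2 h experiment. RNA of proliferation genes was thus present in the starved cultures, and these data do not show that all cells were quiescent. In bulk RNA, fewer cells of a kind and less RNA per cell cannot be told apart.

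The promoters of 3 members that differed at 2 h are shown, since 2 of these genes were higher and the third lower after merbarone. Each is the 250 bases before the start of the gene's canonical transcript, taken from RefSeq promoters of GRCh38.p14 that matched GRCh37 exactly at the positions given. Capitals mark GC boxes, searched as GGGCGG. They also mark the CCAAT box, searched by the letters of its name, and the E-box, searched as CACGTG. Both strands were searched and overlapping matches were counted.
CDKN1A (GRCh37 chr6:36646241-36646490, plus strand): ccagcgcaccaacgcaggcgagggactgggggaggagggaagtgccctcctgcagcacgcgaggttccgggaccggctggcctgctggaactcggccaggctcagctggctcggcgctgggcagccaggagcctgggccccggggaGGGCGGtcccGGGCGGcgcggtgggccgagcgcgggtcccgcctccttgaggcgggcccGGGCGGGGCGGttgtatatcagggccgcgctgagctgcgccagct
CDKN2B (GRCh37 chr9:22009305-22009554, minus strand): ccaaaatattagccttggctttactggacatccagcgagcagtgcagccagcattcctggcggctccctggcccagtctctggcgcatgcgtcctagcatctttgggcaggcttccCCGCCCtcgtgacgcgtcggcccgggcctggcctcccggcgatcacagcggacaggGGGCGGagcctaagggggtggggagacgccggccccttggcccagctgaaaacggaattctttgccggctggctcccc
CDKN2C (GRCh37 chr1:51435667-51435916, plus strand): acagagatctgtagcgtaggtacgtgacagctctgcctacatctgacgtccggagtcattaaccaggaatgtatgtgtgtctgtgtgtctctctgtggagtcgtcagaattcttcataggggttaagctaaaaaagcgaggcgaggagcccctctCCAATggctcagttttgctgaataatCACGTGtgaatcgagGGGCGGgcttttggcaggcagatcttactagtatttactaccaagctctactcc
CDKN1A held 4 GC boxes and no match to the other motifs searched. CDKN2B held 2 GC boxes. CDKN2C held 1 GC box, 1 CCAAT box and 1 E-box. Of 34788 RefSeq promoters of the same length, 42.6% held a GC box, 24.3% held 2 or more and 7.61% held 4 or more; a CCAAT box was in 32.0% and an E-box in 6.31%. TATAAA (10.8% of promoters), the E2F element GCGGGAA (5.52%) and the cyclic AMP element TGACGTCA (1.64%) had no match in any of the 6 members with a promoter entry. CDKN2D, not shown because 80 of its 250 bases are annotated as exon, held 2 GC boxes and 1 CCAAT box. These matches describe letters and do not show binding.

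CDKN1A (ENSG00000124762; GRCh37 chr6:36644237-36655114, plus strand) encodes p21, the CIP/KIP inhibitor best known for its rise under cellular stress. After 2 h of merbarone it rose 2.92-fold, from 36.2 ± 1.69 RPKM (SD, n = 2) to 106 ± 23.5 RPKM (SD, n = 2). The untreated libraries held 34.98 and 37.4 RPKM and the merbarone libraries 89.0 and 122 RPKM. The groups were far apart, and the treated pair also differed between themselves more than the untreated pair. The log2 fold change, on log2(RPKM + 1) throughout, was 1.504 ± 0.15 (SE; 95% interval 1.16 to 1.85; limma, adjusted p = 3.85e-04), the 27th highest of 6620 genes tested. Over all genes tested, 13.1% passed the threshold of 0.05 at 2 h, 5.98% higher and 7.1% lower.

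The same gene was not called at 30 min. DMSO libraries held 24.2, 26.3 and 22.3 RPKM and merbarone libraries 24.9, 30.1 and 23.8 RPKM, so the groups overlapped. In the fit without pairing, the log2 fold change was 0.11 ± 0.11 (SE, 95% interval -0.15 to 0.37). In each same-numbered pair the merbarone library was nevertheless the higher, by 0.04, 0.19 and 0.09 on the log2 scale. The effect at 2 h exceeded that at 30 min by 1.40 ± 0.21 (SE; limma contrast over all 10 libraries, adjusted p = 0.0112), a difference called for 1.63% of 6558 genes. This call was lost without untreated replicate 1 (adjusted p = 0.051) or untreated replicate 2 (adjusted p = 0.0589).

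**Figure D1:**
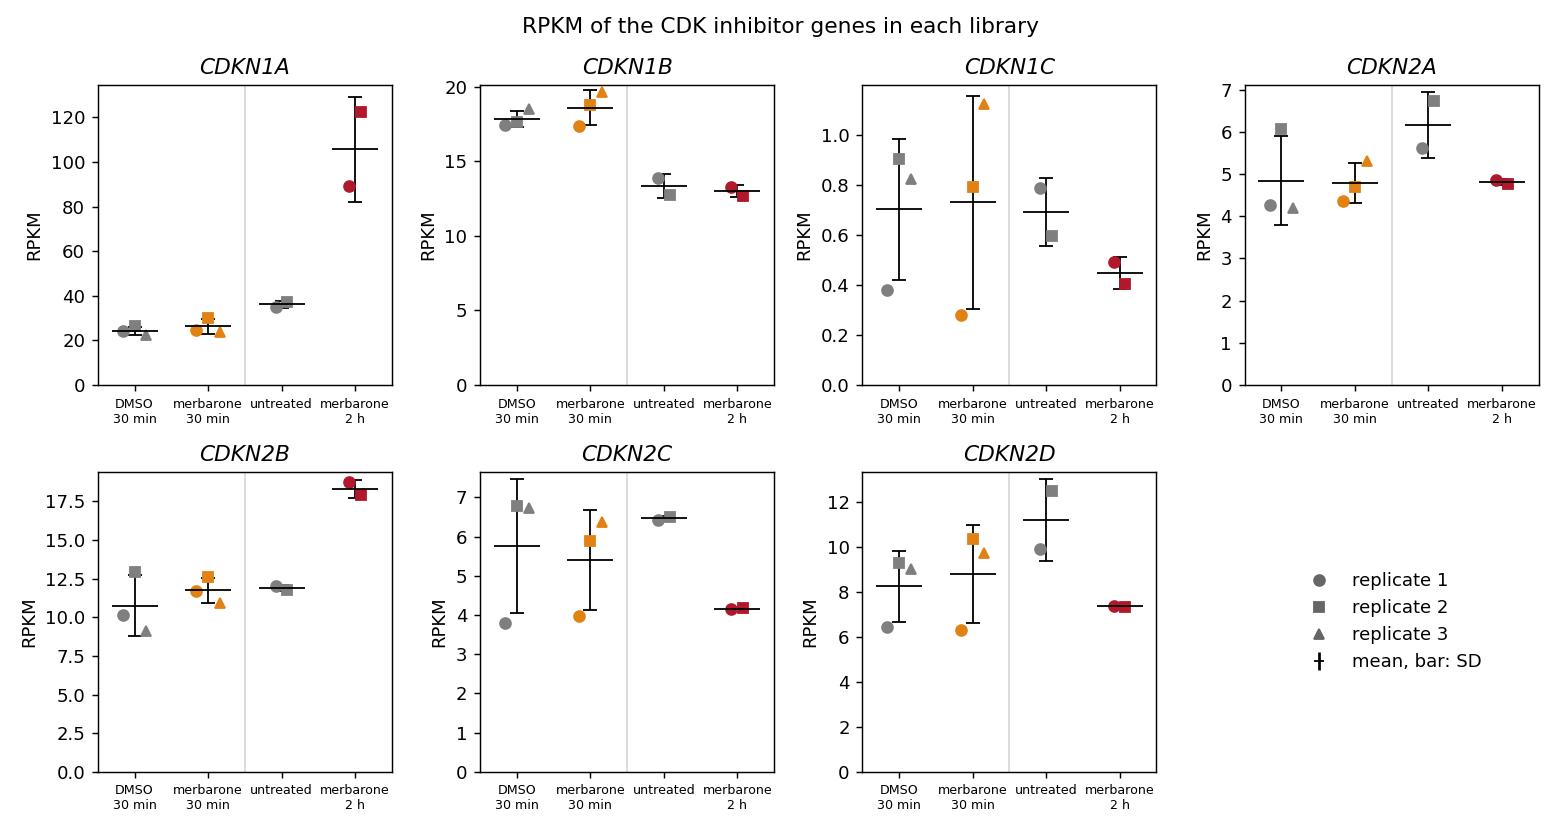
RPKM of each CDK inhibitor gene (vertical axes, each from 0) in the 4 groups, 1 point per library with its replicate number as the symbol; horizontal lines are means and bars SD, and the grey line separates the experiments. At 2 h both CDKN1A libraries lie above 89.0 RPKM against at most 37.4 RPKM untreated, CDKN2B is higher, and CDKN2C and CDKN2D are lower.

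CDKN1B (ENSG00000111276; GRCh37 chr12:12838432-12875303, plus strand) encodes p27, the CIP/KIP inhibitor that accumulates in quiescent cells largely through slower protein breakdown. Its untreated libraries held 13.9 and 12.8 RPKM and its 2 h merbarone libraries 13.3 and 12.7 RPKM. It was the only member whose groups overlapped at 2 h. The log2 fold change was -0.03 ± 0.10 (SE; 95% interval -0.26 to 0.19; limma, adjusted p = 0.853). At 30 min DMSO gave 17.4, 17.6 and 18.5 RPKM and merbarone 17.4, 18.8 and 19.7 RPKM, again overlapping, with a log2 fold change of 0.06 ± 0.07 (SE). At the RNA level neither comparison excludes a change within these intervals.

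CDKN1C (ENSG00000129757; GRCh37 chr11:2904443-2907005, minus strand) encodes p57, an imprinted CIP/KIP inhibitor. It stayed under the 1 RPKM mean needed for testing in both experiments. It was at 0.787 and 0.595 RPKM untreated and at 0.492 and 0.402 RPKM after 2 h, which rest on 19 to 28 and 14 to 18 reads. Both treated libraries were lower, by 0.22 on the log2 scale between means. Fits that admit low genes did not call it (adjusted p = 0.332 in limma with no filter, and 0.277 in limma's voom on recovered reads). At 30 min the DMSO libraries held 0.380, 0.903 and 0.823 RPKM and the merbarone libraries 0.278, 0.790 and 1.12 RPKM.

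Among the INK4 genes, CDKN2B rose at 2 h while CDKN2C and CDKN2D fell. CDKN2B (ENSG00000147883; GRCh37 chr9:22002902-22009304, minus strand) encodes p15, an inhibitor known to be induced by TGF-beta. It was at 12.03 and 11.7 RPKM untreated and at 18.7 and 17.9 RPKM after merbarone. Both treated libraries were above both controls, and the spread within groups was small. The ratio of means was 1.54 and the log2 fold change 0.58 ± 0.10 (SE; 95% interval 0.36 to 0.80; limma, adjusted p = 0.00658). At 30 min it was at 10.15, 12.95 and 9.12 RPKM in DMSO and at 11.7, 12.6 and 10.9 RPKM in merbarone, with overlapping groups and a log2 fold change of 0.13 ± 0.13 (SE).

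CDKN2C (ENSG00000123080; GRCh37 chr1:51426417-51440306, plus strand) encodes p18. It fell from 6.42 and 6.51 RPKM untreated to 4.14 and 4.17 RPKM at 2 h. Replicates agreed closely within both groups, and the groups did not overlap. The ratio of means was 0.643 and the log2 fold change -0.53 ± 0.08 (SE; 95% interval -0.72 to -0.34; limma, adjusted p = 0.00498). CDKN2D (ENSG00000129355; GRCh37 chr19:10677136-10679735, minus strand) encodes p19INK4d. It was at 9.91 and 12.5 RPKM untreated and at 7.36 and 7.35 RPKM at 2 h, with untreated replicate 2 the highest. The ratio of means was 0.657 and the log2 fold change -0.54 ± 0.12 (SE; 95% interval -0.80 to -0.28; limma, adjusted p = 0.0198). The 2 genes stood 90th and 87th from the lowest of the 6620 fold changes.

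CDKN2A (ENSG00000147889; GRCh37 chr9:21967751-21995300, minus strand) gives rise to both p16INK4a, a CDK4 and CDK6 inhibitor, and p14ARF, which restrains MDM2; the deposited row sums their reads. It was at 5.61 and 6.72 RPKM untreated and at 4.87 and 4.76 RPKM at 2 h. Both treated libraries were lower, but the adjusted p missed the threshold (log2 fold change -0.30 ± 0.10, SE; 95% interval -0.52 to -0.07; limma, adjusted p = 0.0819). At 30 min it was at 4.26, 6.06 and 4.20 RPKM in DMSO and at 4.36, 4.69 and 5.30 RPKM in merbarone, and the fold change was -0.00 ± 0.13 (SE).

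Of the 6 members tested at 2 h, 2 were called higher and 2 lower, beside 5.98% and 7.1% of all 6620 genes tested. The groups did not overlap for 6 of the 7 members, against 61.5% of genes tested, so separation alone does not set these genes apart. All genes tested had a median log2 fold change of -0.05 at 2 h, with 5th and 95th percentiles of -0.39 and 0.35, and the 4 called members lay outside that range. Calls at 2 h were 396 higher and 470 lower; they were 987 and 761 after a correction for GC content, and 1204 and 872 with limma's voom on recovered reads. Fold changes at 2 h fell with transcript GC content across genes (Spearman's rho -0.16 over 6496 genes, which are not independent replicates). Those at 30 min did so too, with a rho of -0.41 over 6380 genes. CDKN2C (58.1% GC) and CDKN2D (61.2%) were GC-richer than the 2 h median of 51.2%. So were CDKN2A (58.3%) and CDKN1A (58.1%); CDKN1A had the highest fold change of the members, and CDKN2B, which also rose, was at 44.2%. With that correction CDKN2C and CDKN2D were still lower, at -0.45 (limma, adjusted p = 0.00134) and -0.46 (limma, adjusted p = 0.00238). Without merbarone replicate 1 the calls of CDKN2B (adjusted p = 0.0583) and CDKN2D (adjusted p = 0.0526) were lost; CDKN2A was called without untreated replicate 1 (adjusted p = 0.00142). Without a filter on low values none of the 4 members passed, the adjusted p of CDKN1A being 0.142.

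**Figure D2:**
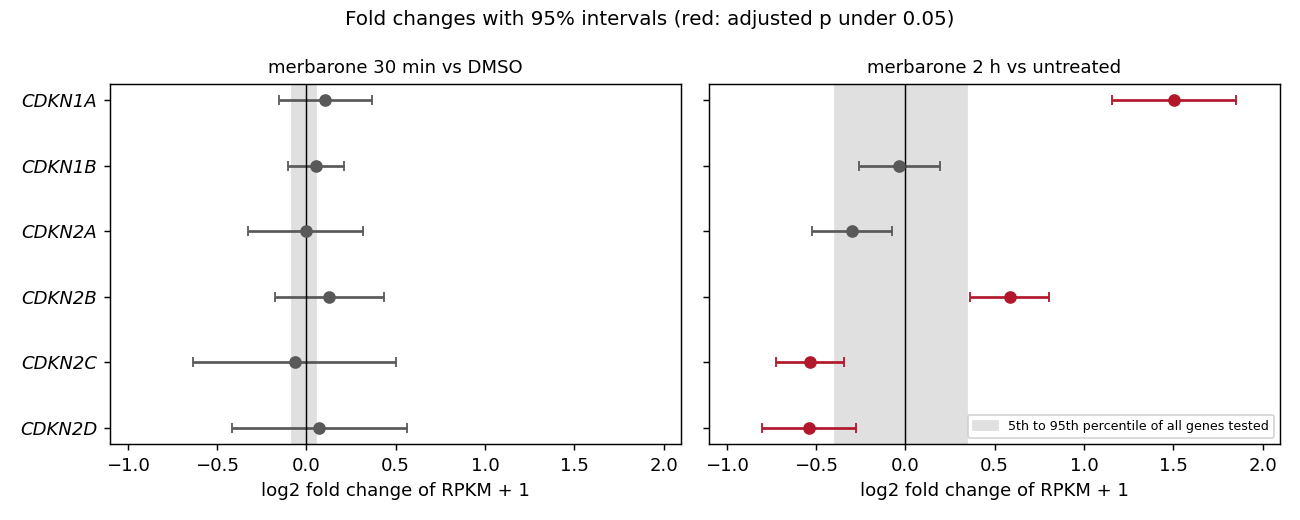
Log2 fold changes (horizontal axis, log2 of RPKM + 1) of the 6 tested members at 30 min (left, 3 libraries a group) and 2 h (right, 2 libraries a group), with 95% intervals; red marks adjusted p under 0.05 and the grey band the 5th to 95th percentile of all genes tested. No interval of these fits, which do not pair replicates, excludes 0 at 30 min, and CDKN1A at 1.504 lies farthest from 0 at 2 h.

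At 30 min no member was called and all 7 had overlapping groups. Among all genes, 0.0154% were called (1 of 6500), and 2.28% had groups that did not overlap. The 5th and 95th percentiles of all log2 fold changes at 30 min were -0.0792 and 0.0576. CDKN2B (0.129), CDKN1A (0.108) and CDKN2D (0.0736) lay above that range, though their 95% intervals in the unpaired fit included 0. CDKN1B, CDKN2A and CDKN2C lay inside it. Replicate numbers paired the libraries of this experiment; with the number as a block 0.123% of genes were called, and still no member. CDKN2C showed the pairing: it was at 3.80, 6.77 and 6.73 RPKM in DMSO replicates 1, 2 and 3 and at 3.96, 5.89 and 6.36 RPKM in merbarone replicates 1, 2 and 3. CDKN2D followed with 6.44, 9.28 and 9.02 RPKM in DMSO and 6.32, 10.4 and 9.73 RPKM in merbarone. For CDKN2C, CDKN2D, CDKN1C and CDKN1B, replicate 1 was the lowest library of both arms. The SE of the CDKN2C fold change of -0.07 was 0.23, and 0.05 with the block. For CDKN2D the fold change of 0.07 had an SE of 0.20, and 0.05 with the block. With the block the SE was 0.05 for CDKN1A (95% interval -0.00405 to 0.219) and 0.06 for CDKN2B (-0.0218 to 0.281). With limma's voom and the block the intervals of CDKN1A (0.0143 to 0.215) and CDKN2B (0.0108 to 0.273) excluded 0, and neither gene was called.

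**Figure D3:**
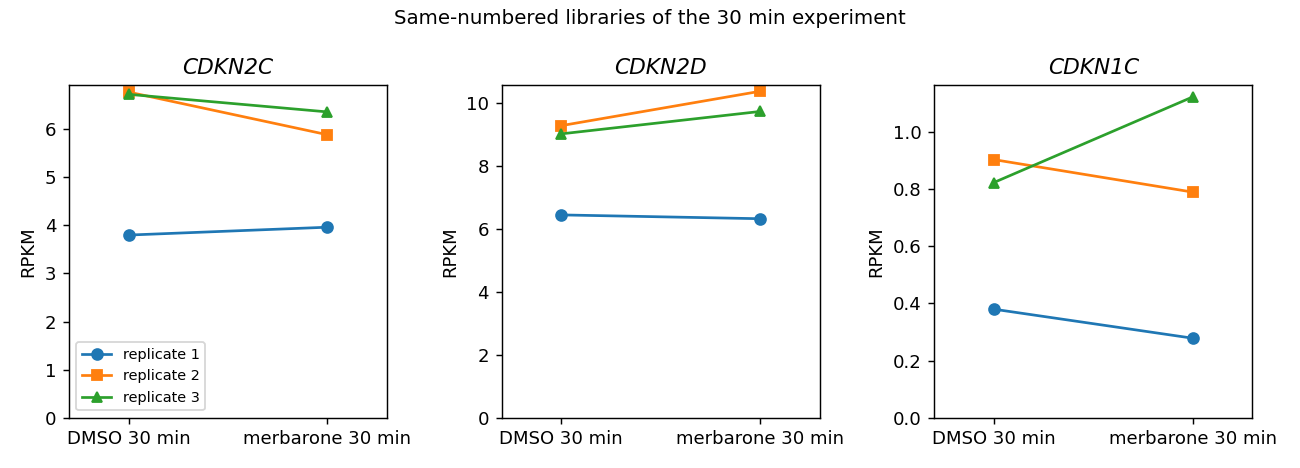
RPKM of CDKN2C, CDKN2D and CDKN1C (vertical axes, from 0) in the 30 min experiment, with a line joining the DMSO and merbarone libraries of the same replicate number. Replicate 1 is lowest in both arms of each gene, for CDKN2C at 3.80 and 3.96 RPKM.

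The difference between the 2 h and 30 min effects was called for CDKN1A alone among the 6 members tested. It was 0.46 for CDKN2B (limma, adjusted p = 0.248), -0.47 for CDKN2C (0.508), -0.61 for CDKN2D (0.334), -0.30 for CDKN2A (0.502) and -0.09 for CDKN1B (0.753). With the replicate block, 19.1% of genes were called, and CDKN2B (adjusted p = 0.0187), CDKN2C (0.00989) and CDKN2D (0.0101) passed beside CDKN1A (5.39e-04).

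The order of the members depended on the length used. For most genes the deposited RPKM divides reads by the whole gene, introns included: 74.9% of 17234 implied lengths were within 1% of the genomic span. By RPKM, CDKN1A was highest in both controls, followed by CDKN1B, CDKN2B, CDKN2D, CDKN2C, CDKN2A and CDKN1C; the ranges of CDKN2B and CDKN2D, and of CDKN2C and CDKN2A, overlapped in both controls, as did those of CDKN2D and CDKN2C in DMSO. CDKN2A, whose implied length was 27561 bases against a canonical transcript of 978, ranked sixth by RPKM. Per kilobase of canonical transcript it reached 136 (reads scaled in the same way) in DMSO and 174 untreated, beside 124 and 185 for CDKN1A, and their ranges overlapped in both controls. CDKN2C followed at 80.5 and 90.3, and CDKN1C was lowest on every scale, at 1.06 and 1.04. All reads of a row were divided by the length used, also those that may lie outside the canonical transcript. This can overstate a level where the transcript is short beside the counted region, as for CDKN2A. The values therefore do not show that CDKN2A transcripts were as abundant as those of CDKN1A. Per kilobase of all annotated exons CDKN2A was at 34.3 in DMSO and 43.8 untreated, against 87.5 and 131 for CDKN1A. On that scale the ranges of CDKN1A and CDKN2A did not overlap in either control. CDKN1B had an implied length of 7317 bases, shorter than its annotated span of 36872, so the region the authors counted differs from the one given here. Length cancels in a ratio of RPKM values but not on log2(RPKM + 1), where it sets the weight of the pseudocount and which genes pass the filter: with a pseudocount of 0.1 the 2 h value of CDKN2A was -0.35. After 2 h of merbarone CDKN2B passed CDKN1B by RPKM, and no neighbouring ranges overlapped.

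**Figure D4:**
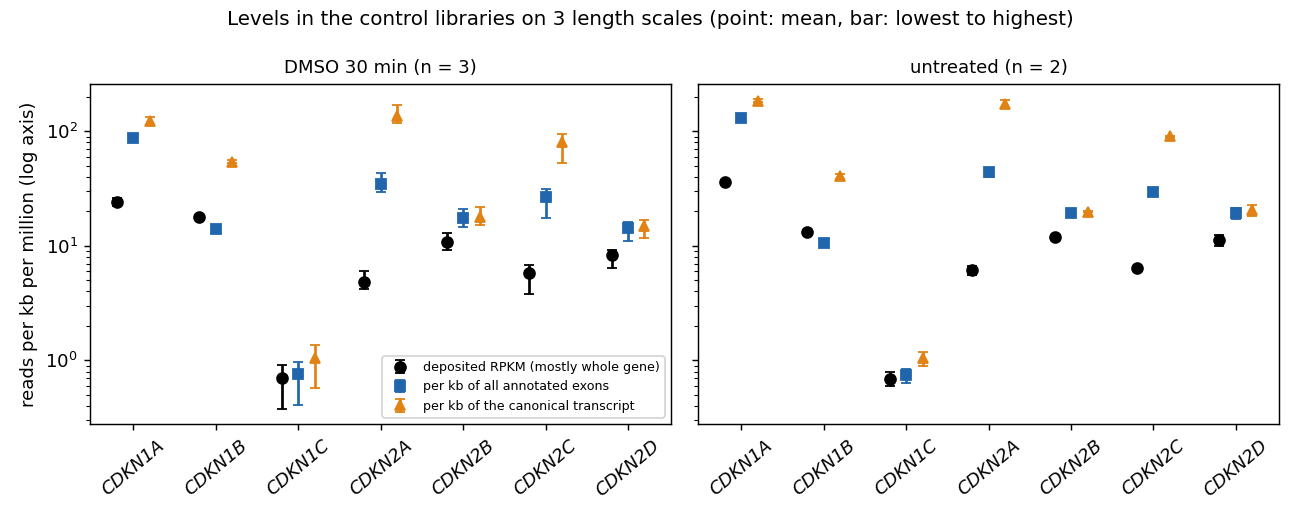
Level of each member in the DMSO (left, n = 3) and untreated (right, n = 2) libraries in reads scaled by length in kilobases and by library total (log axis), by the deposited length, by all annotated exons and by the canonical transcript; points are means and bars run from the lowest to the highest library. In DMSO CDKN2A moves from 4.84 RPKM to 34.3 per kilobase of all annotated exons and 136 per kilobase of canonical transcript. The reads are the same on every scale, and some may lie outside the canonical transcript.

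The neighbourhood of the members was read for overlapping transcripts. CDKN2A and CDKN2B lie 7602 bases apart on the same strand, and inside ENSG00000264545, a lncRNA of the opposite strand. That lncRNA was at 1.42 ± 0.0426 RPKM untreated and 1.48 ± 0.0482 RPKM at 2 h (SD, n = 2 each; log2 fold change 0.04, limma, adjusted p = 0.730). The strand setting of the counting is not given in the sources used here, so reads of overlapping genes cannot be told apart, which also holds for CDKN2B and CDKN2A with CDKN2B-AS1, a lncRNA of the opposite strand that covers all 6403 bases of CDKN2B and 1163 of CDKN2A, and for CDKN1A with DINOL, CDKN1B with GPR19 and CDKN2C with ENSG00000290102. DMRTA1, the next gene of the deposited data past CDKN2B but 437519 bases away, went from 2.49 to 1.72 RPKM (log2 fold change -0.36, limma, adjusted p = 0.0347). AP1M2, 3612 bases past CDKN2D, went from 1.29 to 0.910 RPKM (log2 fold change -0.26, limma, adjusted p = 0.0361). AP1M2 passed the filter on low values only through the untreated group, where it is high, so its call adds nothing. The other tested neighbours (SRSF3, CREBL2, APOLD1 and KRI1) were not called.

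Genes with the pattern most like each member were ranked by Pearson's r of log2(RPKM + 1), centred within each experiment, over 10 libraries and 6558 genes. The libraries share experiments and depth, and the 2 h difference weighs heavily in r. BTG2, an antiproliferative gene, was closest to CDKN1A (r = 0.992), with ASNS, asparagine synthetase (0.985), and KANSL2 (0.984). Nearest to CDKN2B were ZSCAN29 (0.956), RBM48 (0.954) and BORCS8 (0.953). CDKN2C was closest to SAPCD2 (0.986), USP22 (0.986) and RNASE4 (0.983). For CDKN2D they were ENSG00000255439 (0.981), SLC35C1 (0.9747) and GNAS (0.974). CDKN2A was nearest to B4GALNT4 (0.979), TRADD (0.970) and NR2F6 (0.964), and CDKN1B to VEZT (0.960), WNT5A (0.907) and SMARCE1 (0.901). Between members, r was 0.915 for CDKN2C and CDKN2D, 0.871 for CDKN1A and CDKN2B and 0.733 for CDKN2A and CDKN2D.

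Genes that act with the inhibitors were counted at 2 h beside the background of 13.1%. Of the G1 kinases and cyclins, 6 of 10 were tested; none was called higher and 1 lower, with a median of -0.20. That gene was CCNA2, the S-phase cyclin, at 12.8 ± 2.42 RPKM untreated and 8.61 ± 0.458 RPKM treated (SD, n = 2 each). The INK4 target CDK4 went from 24.7 to 19.9 RPKM and CCND1, its D-type cyclin, from 91.6 to 78.9 RPKM, and neither passed (limma, adjusted p = 0.0907 and 0.238). CDK2 was at 15.4 and 14.4 RPKM. CDK6 (0.423 and 0.337 RPKM) and CCNE1 (0.576 and 0.562 RPKM) stayed under the filter. Because RPKM here mostly divides reads by the whole gene, the filter can leave out long genes that have many reads. A gene of these lists that was not tested is therefore not shown to be barely expressed. Of the pocket protein, E2F and DREAM genes, 6 of 16 were tested and none was called.

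Of 19 transcriptional regulators of the inhibitor genes, 10 were tested and 3 were called, all higher. One of these, KLF4, a zinc-finger activator of CDKN1A, went from 0.227 to 1.83 RPKM and passed the filter on low values only through the treated group, where it is high, so its call adds nothing to the count. MYC, which represses CDKN1A and CDKN2B, went from 17.0 to 29.5 RPKM, and MDM2, a ubiquitin ligase, from 2.43 to 3.41 RPKM.

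Of 12 ubiquitin ligases of the inhibitor proteins, 8 were tested and 1 was called, CDC20, the activator of the anaphase-promoting complex, which went from 16.02 to 11.8 RPKM. SKP2, the ligase subunit that targets p27, was at 0.995 RPKM untreated and 0.466 RPKM treated and stayed under the filter. Of the 7 proliferation markers 2 were called lower and none higher, CCNB1 (11.3 to 7.89 RPKM) and PLK1 (9.10 to 6.35 RPKM), while MKI67 was at 13.96 and 15.2 RPKM (limma, adjusted p = 0.554). Their part in the changes of CDKN2C and CDKN2D was not tested. At 30 min no gene of any of these lists was called.

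**Figure D5:**
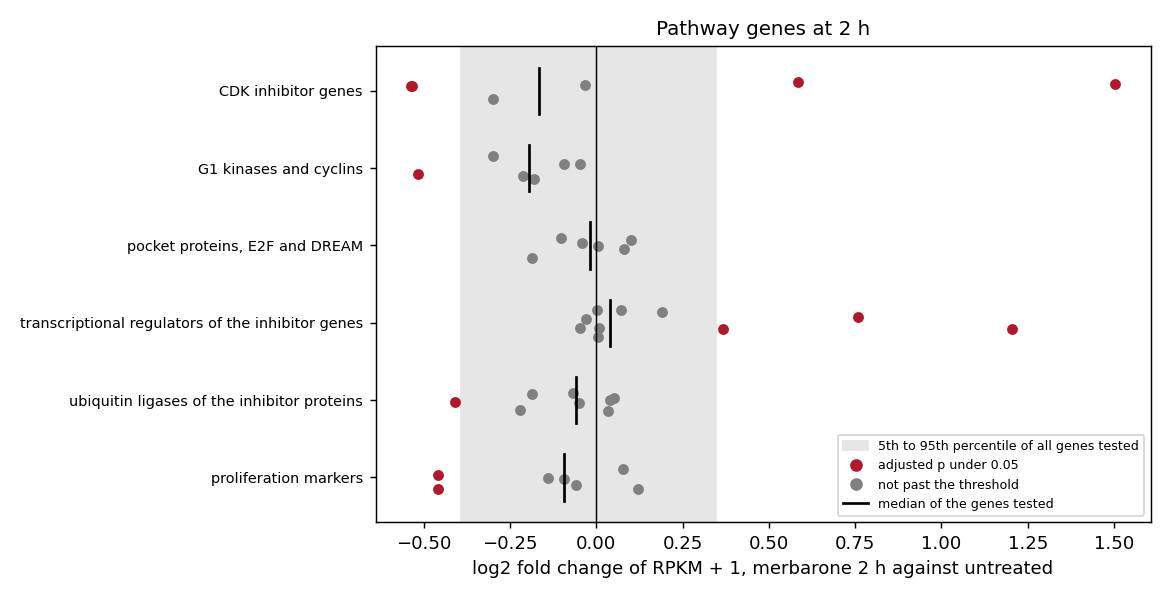
Log2 fold changes at 2 h (horizontal axis, log2 of RPKM + 1, merbarone against untreated) of the tested genes of each list, 1 point per gene, red where adjusted p is under 0.05; black bars are medians and the grey band is the 5th to 95th percentile of all genes tested. CDK inhibitor genes lie on both sides of 0, with CDKN1A farthest from 0 among them, and the median of the G1 kinases and cyclins is -0.20.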

How the data were processed

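RNA levels were measured in 10 libraries made with the TruSeq Stranded mRNA kit from 150 ng of total RNA, per the labels' protocols. Each library's deposited table gives RPKM for Ensembl genes, per the file headers. The submitters' processing notes name Bowtie 1.2.0, DESeq2, edgeR, deepTools 2.4.1 and hg19 (GRCh37), without roles; the read counter, annotation and strand setting are not given in the sources used here. Symbols were found for 19174 of 20327 genes.

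Whole reads were recovered from the steps of the RPKM values for all 17680 genes above 0. On simulated data 99.8% of 14604 genes with 50 or more reads were recovered exactly. Genes averaging 1 RPKM or more were tested two-sided on log2(RPKM + 1) with limma 3.58.1 in R 4.3.3 (trend), Benjamini-Hochberg threshold 0.05, each comparison on its own experiment and their difference over all 10 libraries. On simulated data all 200 changed genes were recovered at 30 min, with 8 unchanged genes called among 6467, and all 197 at 2 h, with 8 among 6610. The planted changes were all larger than those of CDKN2B, CDKN2C and CDKN2D at 2 h. The simulated spread was preset, without pairing of replicates. This recovery therefore does not measure the power to find smaller changes in these libraries. A fold change of log2(RPKM + 1) understates that of low genes.

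Replicate numbers paired the 30 min libraries (correlations of same-numbered deviations 0.925, 0.646 and 0.605; the labels do not say why). No 2 replicates were identical. The labels do not say that replicates were separate cultures, so p-values measure only the spread between these samples. Members and lists were chosen with earlier results of these data known. Named beyond the members were, per member, the 3 most alike genes, the nearest gene on each side, and per list a preset few and up to 3 called genes with the largest change. Positions and lengths are from the GENCODE annotation, release 44, lifted to GRCh37. One gene of the lists and 1 list are not reported here. Alternatives covered the pseudocount, filter, scaling, limma's voom on recovered reads, the block, GC content and left-out libraries.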

Additional observations from a re-analysis of the deposited data

Results flagged for a closer look

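The difference between the 2 h and 30 min effects passed its own test for 107 of 6558 genes in a limma contrast over all 10 libraries. CDKN1A was the 1 tested member among them, with a difference of 1.40 on the log2(RPKM + 1) scale. It was higher in both merbarone libraries at 2 h than in both untreated ones, while the 30 min groups overlapped. Treatment time, kind of control and experiment cannot be told apart in this difference.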

How the results depend on the processing

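Genes called at 30 min (1) came to 0 without a filter once genes at 0 were left out, 2 at a minimum of 5 RPKM, with median scaling, with quantile normalization or with all 10 libraries in 1 fit, 8 with the replicate block or GC correction with the block, 16 with voom and the block, and 0 to 2 with a library left out. At 2 h (866) they came to 80 without a filter, 53 once genes at 0 were left out, 397 at 5 RPKM, 2129 with the replicate block, 2076 with voom, 3566 with voom and the block, 1748 with GC correction, 1990 with GC correction and the block, and 328 to 2464 with a library left out. For the difference (107) they were 319 without a filter, 361 once genes at 0 were left out, 36 at 5 RPKM, 1255 (replicate block), 2054 (voom and block), 207 (GC correction), 1721 (GC correction and block) and 38 to 86 with a library left out. The 2 h count was 2464 without untreated replicate 1, 1311 without untreated replicate 2, 328 without merbarone replicate 1 and 398 without merbarone replicate 2; the count of the difference was 62 without 30 min merbarone replicate 2 or 3, 47 without untreated replicate 2, and 42 and 38 without 2 h merbarone replicates 1 and 2. The GC correction, the filter that leaves out genes at 0 and the scale per canonical transcript length were chosen after seeing the data. With no filter, and with genes at 0 left out, the 2 h calls were lost for CDKN1A (1.504), CDKN2B (0.58), CDKN2C (-0.53) and CDKN2D (-0.54), whose values do not move; adjusted p was 0.142, 0.0728, 0.0531 and 0.229, and then 0.0922, 0.0780, 0.0696 and 0.151. With all 10 libraries in 1 fit CDKN2C (-0.53, limma, adjusted p = 0.182) and CDKN2D (-0.54, 0.148) were lost. CDKN2A passed at 2 h with the replicate block (-0.30), voom (-0.35), voom and block (-0.35), GC correction (-0.21) and GC correction and block (-0.21). At 2 h the deviations of same-numbered libraries had a correlation of 0.3002. With 2 libraries a group, swapping the numbers must give the same value with its sign reversed. This correlation therefore cannot show whether the 2 h libraries were paired, and the labels do not say. In the difference, CDKN2B (0.46, 0.50, 0.49), CDKN2C (-0.47, -0.54, -0.41) and CDKN2D (-0.61, -0.67, -0.56) passed with the replicate block, voom and block, and GC correction and block. Near 0, signs turned: CDKN2A at 30 min was 0.0095 with median scaling, 0.0101 with quantile normalization, 0.0012 with voom, 0.0010 with voom and block, and 0.0224 with GC correction with or without the block; CDKN1B under quantile normalization was 0.0809 at 2 h and 0.0283 in the difference. CDKN1C was -0.53 at 2 h with a pseudocount of 0.1 and -0.61 with voom, with or without the block, and -0.49, -0.50 and -0.65 in the difference. With a library left out, 30 min values ran from 0.01 to 0.17 (CDKN1A), 0.02 to 0.10 (CDKN1B), -0.16 to 0.21 (CDKN1C), 0.03 to 0.26 (CDKN2B), -0.0787 to 0.14 (CDKN2A), -0.30 to 0.11 (CDKN2C) and -0.0755 to 0.27 (CDKN2D); 2 h values from 1.28 to 1.73 (CDKN1A), -0.0887 to 0.0245 (CDKN1B), -0.30 to -0.14 (CDKN1C), -0.41 to -0.19 (CDKN2A), 0.55 to 0.62 (CDKN2B) and -0.69 to -0.38 (CDKN2D); and the difference from 1.17 to 1.62 (CDKN1A), -0.14 to -0.03 (CDKN1B), -0.43 to -0.07 (CDKN1C), -0.44 to -0.18 (CDKN2A), 0.32 to 0.56 (CDKN2B), -0.64 to -0.24 (CDKN2C) and -0.81 to -0.46 (CDKN2D). Leaving out 1 of 2 libraries assumes that the lone library varies like the other group. Per summed exon and per canonical transcript length, DMSO ranks became 1 and 2 for CDKN1A, 6 and 4 for CDKN1B, 2 and 1 for CDKN2A, 4 and 5 for CDKN2B, 3 and 3 for CDKN2C, and 5 and 6 for CDKN2D; untreated ranks became 6 and 4 for CDKN1B, 2 and 2 for CDKN2A, 5 and 6 for CDKN2B, 3 and 3 for CDKN2C, and 4 and 5 for CDKN2D. Over the alternatives that kept all libraries, the 2 h adjusted p (limma) ran from 2.87e-59 to 0.142 for CDKN1A and 3.75e-09 to 0.0780 for CDKN2B. It ran from 1.15e-08 to 0.182 for CDKN2C, 4.76e-07 to 0.229 for CDKN2D and 0.00159 to 0.293 for CDKN2A. The lowest value of each gene came from a fit with the replicate block. In those fits limma's prior degrees of freedom were infinite, so a gene's own spread did not enter, and these values cannot be read as ordinary p-values. The cause of these changes with the processing was not tested. Read numbers limit CDKN1C most, with 14 to 28 reads per library in the 2 h experiment.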
